A study of Homo sapiens with 6 samples.

Results

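The proteins of the U1 small nuclear ribonucleoprotein (U1 snRNP) and the factors that help it hold a 5′ splice site were followed here as RNAs: 9 genes, SNRNP70, SNRPA, SNRPC, LUC7L, LUC7L2, LUC7L3, PRPF40B, TIA1 and TIAL1, whose own introns and exons were measured after knockdown of the splicing regulator SFSWAP. Members were the retained intron and skipped exon events of these genes with a mean of at least 20 junction reads per library, counting reads of both forms. This gave 23 of 12867 introns, in 5 of the genes, and 187 of 101163 exon events, on 145 of 84642 exons, in 8 of the genes. PRPF40B had no event at that depth, since its deepest intron had 7.0 reads and its deepest exon event 10.3 reads per library. LUC7L2 and TIA1 had no intron at that depth, and the intron table held no event of SNRPA.

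The cells were HEK293A-TOA, which derive from human embryonic kidney. The siSFSWAP group (3 libraries) was transfected with 40 nM of a mixture of 2 siRNAs against SFSWAP, and the siNT group (3 libraries) with non-target siRNA. Both groups were collected after 5 days without any inhibitor, and polyadenylated RNA was sequenced from biological triplicates. The study asked how loss of SFSWAP alters splicing. Inclusion is the share, in percent, of length-scaled junction reads that hold the intron or exon, and every change is siSFSWAP minus siNT in percentage points. Letters a, b and c name the libraries of a group by their place in the deposited lists, which carry no replicate numbers, so the same letter in the other group is not a partner. Testing further required 5 reads of each form, summed over the 6 libraries, and reads in 2 or more libraries per group. An event was called when its mean inclusion changed by 20 points or more and the Benjamini-Hochberg adjusted p of a quasi-binomial F test, moderated with limma, did not exceed 0.05. Because polyadenylated RNA of whole cultures was measured, a change in splicing and a change in the decay of 1 form cannot be told apart.

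U1 snRNP is the first particle of the spliceosome to bind an intron. Its RNA pairs with the bases at the 5′ splice site, its core proteins U1-70K (SNRNP70), U1-A (SNRPA) and U1-C (SNRPC) hold the particle together and steady that pairing, and proteins such as the LUC7 family and TIA1 help it settle on weaker sites before U6 takes its place. Several splicing factor genes carry exons that place a stop codon in the reading frame, and RNAs that include such exons are typical targets of nonsense-mediated decay.

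SFSWAP itself had 34.7, 34.6 and 21.3 CPM (reads summed over its exon events, per 1000000 such reads of the library) in siSFSWAP libraries, against 79.7, 86.5 and 80.2 in siNT libraries. The groups did not overlap, and the log2 change was −1.48 ± 0.16 (SE, limma, adjusted p = 0.000434), with 36.8% of the siNT level left. In such bulk RNA, less RNA per cell and fewer cells that hold it cannot be told apart. Each library held between 2767079 and 7465949 junction reads over the intron events and between 19515010 and 55274283 over the exon events, and siNT library a was the deepest in both. The calls over all events depended on single libraries. With all 6 libraries 163 introns were called lower and 692 exon events higher. Without siNT library a these counts were 498 and 1513. Without one of the other libraries they lay between 14 (siSFSWAP a) and 98 (siNT c) introns and between 166 (siSFSWAP a) and 348 (siNT c) exon events. Of 6 marker genes of the HEK293 line only GATA3 had an event, at 4.2 to 7.2 CPM, and none of 7 epithelial markers of HCT116 cells, another line of the study, had an event, so the line was not resolved by markers here.

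Of the 145 exons, 98 were tested; in the others 1 form was too rare. TIAL1 exon 3 was skipped far more often in siSFSWAP cells, a group of stop-containing SNRNP70 exons was included about 5 to 8 points more often, and the exons of SNRPA, SNRPC, LUC7L, LUC7L2 and TIA1 did not pass the test. In all, 2 of the 98 exons were called lower in siSFSWAP, or 2.04%, against 0.701% of all 42099 exons tested, and 1 was called higher, or 1.02%, against 1.27%. By the adjusted p alone 5 were lower (5.1%, against 2.37% of all exons) and 8 higher (8.16%, against 3.11%). The groups did not overlap for 22 exons that were lower (22.4%, against 9.56% of all exons) and for 19 that were higher (19.4%, against 13.6%). Forms of an exon share reads, so these counts are not of independent events. The median change over the 98 exons was 0.15 points, against 0.22 points over all exons tested.

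**Figure D1:**
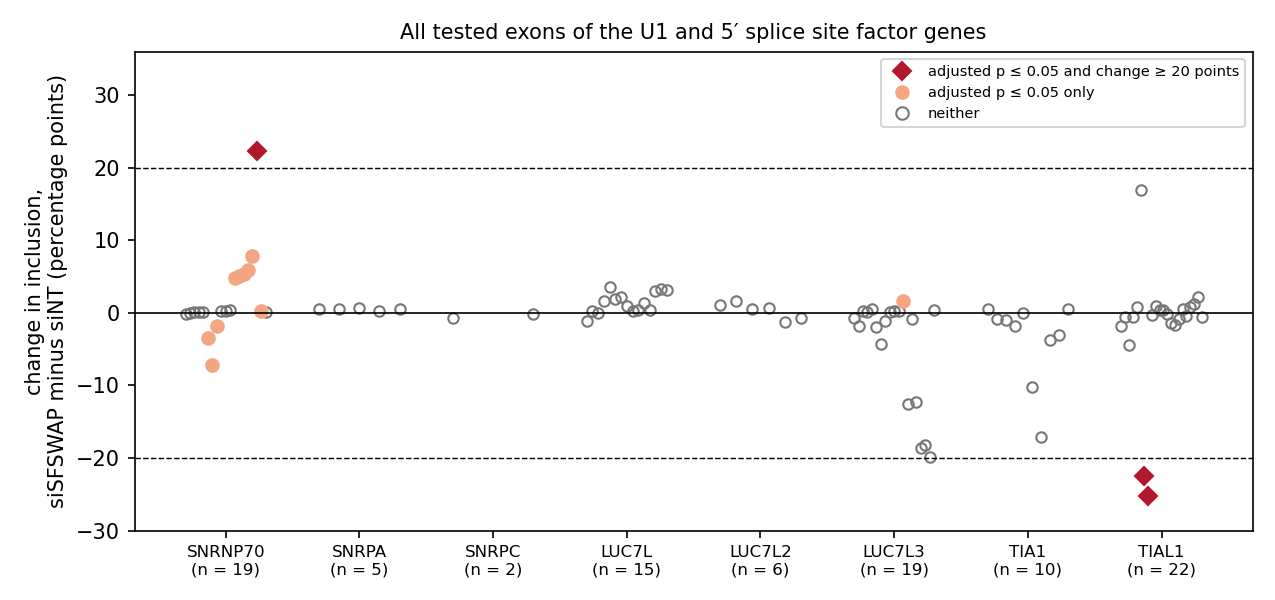
Change in mean inclusion (vertical axis, percentage points, siSFSWAP minus siNT) of each of the 98 tested exons, grouped by gene and ordered by position within a gene. Diamonds pass the adjusted p and the 20 point threshold (dashed lines), filled circles pass the adjusted p alone, and open circles pass neither. Both diamonds below −20 points belong to TIAL1 and the diamond above 20 points to SNRNP70.

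SNRNP70 encodes U1-70K, which binds stem-loop I of the U1 RNA. Of the 9 genes it had the most exons past the adjusted p, with 3 of 19 tested exons lower and 7 higher by the adjusted p. In intron 7 of the 10-exon reference transcript, on chromosome 19, lies an alternative exon whose 3′ splice site is followed by a choice of 5′ splice sites. It is printed below with 10 bases of intron on each side, because its 5′ splice sites and its stop codon bear on how it is read. The capitals mark the first intron bases after each of 4 sites, which end forms of 55, 60, 72 and 85 nt (GRCh38, chr19:49102104-49102208, plus strand).
SNRNP70 alternative exon: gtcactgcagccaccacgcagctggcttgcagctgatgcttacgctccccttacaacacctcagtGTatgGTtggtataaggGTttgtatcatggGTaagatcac
Against the consensus CAGGTAAGT (3 exon and 6 intron bases, read on the transcribed strand), these sites matched at 4, 5, 5 and 6 of 9 positions in order of length. Over all 42099 tested exons the median was 6 matches, 5.1% had at most 4, 25.4% at most 5 and 64.0% at most 6. Read in the frame of the reference transcript, every form meets a TGA stop at base 24, and GENCODE 44 lists the 60-nt and 72-nt forms only in transcripts marked for nonsense-mediated decay. The remaining form, 1474 nt long, starts at the same 3′ splice site and ends at a site with 6 matches, and its annotated transcript is also so marked. Junction reads alone do not show whether the bases inside that long form were kept.

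All 5 forms were included more often in siSFSWAP cells. The 1474-nt form had 10.7, 9.99 and 9.98% inclusion in siSFSWAP libraries, against 2.97, 2.52 and 1.75% in siNT libraries. The highest siNT value lay far below the lowest siSFSWAP value. The change was 7.83 points, or a log2 odds of 2.14 ± 0.16 (SE, adjusted p = 9.64e-10), resting on 263, 155 and 172 inclusion reads in siSFSWAP and 149, 70 and 46 in siNT, while skipping reads numbered 1092, 698 and 776 in siSFSWAP and 2435, 1355 and 1293 in siNT. The 85-nt form had 8.44, 7.55 and 6.91% in siSFSWAP libraries, against 2.33, 1.56 and 1.52% in siNT libraries (change 5.83 points, adjusted p = 4.17e-08). The 3 shorter forms had similar values: the 55-nt form averaged 6.32 ± 0.61% in siSFSWAP and 1.5 ± 0.27% in siNT, the 60-nt form 7.04 ± 0.72% and 1.99 ± 0.64%, and the 72-nt form 6.92 ± 0.95% and 1.63 ± 0.58% (SD, n = 3 each), with adjusted p of 2.5e-07, 1.81e-06 and 3.89e-07 in the limma-moderated test. None of the 5 reached the 20 point threshold. Whichever library was left out, the adjusted p stayed at or below 0.00163 for each. With limma on the log2 odds in place of the quasi-binomial test, none of the 5 passed, at adjusted p of 0.0827 for the 1474-nt form and between 0.085 and 0.113 for the others. The 5 events share their skipping reads and the junction into the common 3′ splice site, so they are not 5 independent observations, and how much of the change belongs to each 5′ splice site was not tested.

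**Figure D2:**
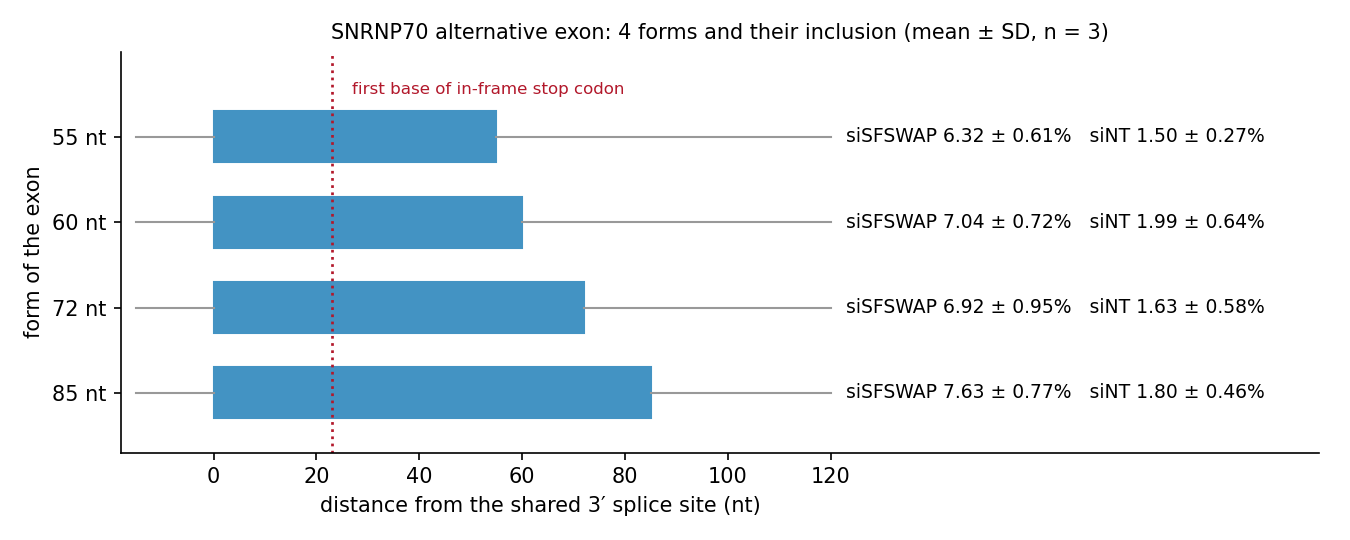
The 4 short forms of the SNRNP70 alternative exon drawn to scale from the shared 3′ splice site (horizontal axis, nt), with the mean ± SD inclusion of siSFSWAP and siNT libraries (n = 3 each) written beside each form and a dotted line at the start of the in-frame stop codon. Each form averaged between 6.32 and 7.63% in siSFSWAP and between 1.5 and 1.99% in siNT, and the stop lies in all of them.

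**Figure D3:**
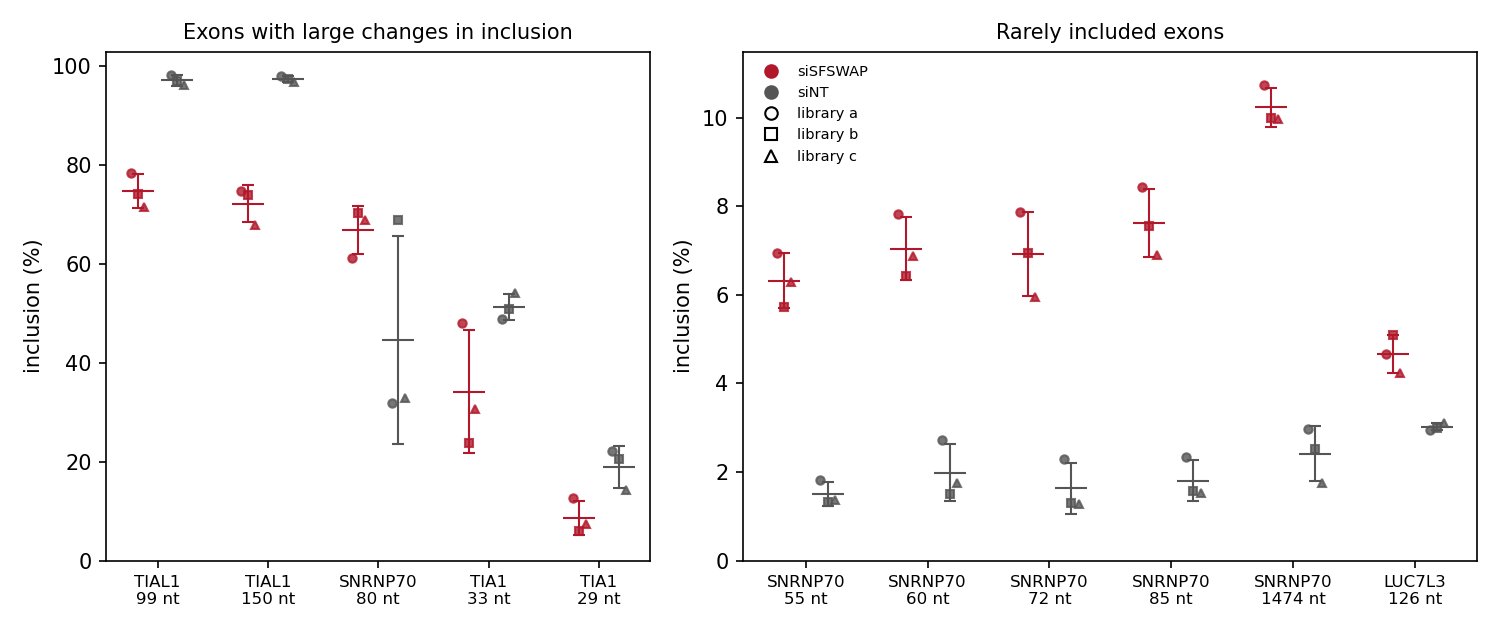
Inclusion (vertical axes, percent) of 11 exons of TIAL1, SNRNP70, TIA1 and LUC7L3 in each library, with siSFSWAP in red left of siNT in grey; symbols mark libraries a, b and c, bars the mean and whiskers the SD (n = 3). The TIAL1 exons and the rarely included SNRNP70 exons separate the groups, and the SNRNP70 80-nt exon has siNT library b among the siSFSWAP values.

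The end of the same SNRNP70 region, an exon of 80 nt that shares the 5′ splice site of the 1474-nt form, was the called exon of this gene. Its inclusion, given use of the 60-nt form upstream, was 61.3, 70.3 and 68.9% in siSFSWAP libraries, against 31.9, 68.9 and 33.0% in siNT libraries. The groups overlapped, since siNT library b was as high as the siSFSWAP libraries. The change of 22.2 points (adjusted p = 0.0432) rested on a mean of 55.3 reads per library. The change was 15.9 points without siNT a and 16.4 without siNT c, both under the threshold, and 34.4 without siNT b. The call was lost when any library other than siNT b was left out, with adjusted p between 0.102 and 0.493, and with limma on the log2 odds (0.382), and was kept without siNT b (adjusted p = 0.0156).

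Exon 3 of SNRNP70, a 63-nt coding exon, was almost always included, and its skipping was more frequent in siSFSWAP cells. It is shown because skipping removes it whole and without a shift of frame, 63 being a multiple of 3; the capitals mark the exon (GRCh38, chr19:49090281-49090363, plus strand).
SNRNP70 exon 3: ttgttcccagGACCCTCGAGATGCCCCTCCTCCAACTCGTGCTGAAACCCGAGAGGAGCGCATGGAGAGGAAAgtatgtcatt
Skipping reads numbered 12, 17 and 30 in siSFSWAP libraries, against 2, 1 and 0 in siNT libraries. Every siSFSWAP library had more of them than any siNT library, although siNT library a was the deepest. Inclusion was 99.2, 98.3 and 97.1% in siSFSWAP, against 99.93, 99.93 and 100% in siNT, a change of −1.76 points (log2 odds −4.78 ± 1.22, adjusted p = 0.00029). A 99-nt form with an earlier 3′ splice site changed by −3.45 points and a 62-nt form, which ends 1 base earlier and is not followed by GT, by −7.17 points. These 3 events rest on the same skipping reads, and in all 3 the adjusted p stayed at or below 0.0121 whichever library was left out and at or below 0.0447 with limma on the log2 odds. A 194-nt exon in intron 8 with a stop at base 18 was included at 0.18, 0.27 and 0.52% in siSFSWAP, against 0, 0 and 0.11% in siNT (adjusted p = 0.0453). Its inclusion reads numbered 5, 5 and 10 in siSFSWAP and 0, 0 and 3 in siNT, and it passed in only 1 of the 6 fits that leave out a library and not with limma on the log2 odds (adjusted p = 0.091). The other 9 tested exons of SNRNP70 changed by less than 0.4 points and did not pass.

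The other core proteins of U1 showed little. SNRPA encodes U1-A, which binds stem-loop II of the U1 RNA and regulates its own transcript. Its 5 tested exons are forms of exon 2, and their changes lay between 0.30 and 0.61 points. The 110-nt form, with the smallest adjusted p, was included at 98.1, 98.2 and 98.8% in siSFSWAP, against 97.5, 97.0 and 98.8% in siNT, and the groups overlapped (adjusted p = 0.769). It starts at the same 3′ splice site as the 173-nt exon 2 of the reference transcript. Junction reads into that site can count toward both, so the value does not show how often the 110-nt form was used. SNRPC encodes U1-C, a zinc finger protein that touches the duplex between U1 and the 5′ splice site. Its 43-nt exon 2 was included at 98.62, 99.06 and 98.64% in siSFSWAP, against 99.67, 98.99 and 100% in siNT, again with overlap (adjusted p = 0.406).

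The LUC7-like proteins are the human relatives of yeast Luc7p, a U1 component that affects which 5′ splice sites are used. LUC7L3 has in its intron 9 a 126-nt exon that carries a stop at base 24 and ends at a site with 7 consensus matches; the capitals mark the exon (GRCh38, chr17:50749209-50749354, plus strand).
LUC7L3 126-nt exon: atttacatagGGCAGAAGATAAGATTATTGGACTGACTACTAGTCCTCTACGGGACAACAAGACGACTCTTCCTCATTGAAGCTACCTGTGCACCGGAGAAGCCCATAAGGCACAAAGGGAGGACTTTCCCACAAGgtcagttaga
Its inclusion was 4.67, 5.08 and 4.25% in siSFSWAP libraries, against 2.95, 3.00 and 3.11% in siNT libraries. The groups did not overlap, and the siNT libraries lay within 0.2 points of each other. The change was 1.65 points (log2 odds 0.66 ± 0.16, adjusted p = 0.0158), and the adjusted p was above 0.05 when siSFSWAP a (0.0952), siSFSWAP b (0.104) or siNT b (0.0606) was left out and was 0.564 with limma on the log2 odds. The 193-nt exon of intron 2, found only in transcripts marked for nonsense-mediated decay, was included at 12.7, 13.2 and 9.76% in siSFSWAP, against 11.6, 12 and 17.5% in siNT, and the groups overlapped (adjusted p = 0.794). A pair of nested exons on the 3′ UTR side had wide spreads: the 66-nt exon averaged 27.6 ± 14.2% in siSFSWAP and 47.5 ± 20.2% in siNT, and the 88-nt exon 18.4 ± 8.81% and 36.7 ± 19.8% (SD, n = 3 each, limma-moderated adjusted p = 0.571 and 0.551). The deeply covered 141-nt exon just before that region was at 99.17, 99.28 and 98.95% in siSFSWAP, against 100, 100 and 99.77% in siNT, without overlap but short of the threshold (adjusted p = 0.0608). A 220-nt and a 136-nt form share its 5′ splice site and skipping reads, at a mean of 53.2 and 55.2 reads per library. They changed by −12.6 and −12.3 points, also without overlap and without passing (adjusted p = 0.0836 and 0.0811).

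No exon of LUC7L or LUC7L2 passed. In LUC7L the 15 tested exons changed by −1.15 to 3.58 points. Its 30-nt exon 8 was at 96.0, 95.5 and 87.9% in siSFSWAP, against 96.6, 93.7 and 92.6% in siNT (adjusted p = 0.649). A 64-nt exon in intron 3 averaged 8.64 ± 1.97% in siSFSWAP and 6.49 ± 2.33% in siNT (SD, n = 3 each). A 324-nt form of exon 3, with an in-frame stop, averaged 94.5 ± 3.30% in siSFSWAP and 94.1 ± 2.29% in siNT. The groups overlapped for all of these. The 324-nt form ends at the same 5′ splice site as the 99-nt exon 3 of the reference transcript. Junction reads from that site count toward both, so the value does not show how often the stop-containing form was used. A 412-nt exon of intron 1, with a stop at base 21, had the smallest adjusted p of the gene and was at 9.32, 4.95 and 7.79% in siSFSWAP, against 3.79, 3.37 and 5.41% in siNT (adjusted p = 0.237). In LUC7L2 a 277-nt exon of intron 1 with a stop at base 33 was at 2.16, 2.76 and 3.09% in siSFSWAP, against 1.08, 1.34 and 0.91% in siNT. Its groups did not overlap, but the change of 1.56 points did not pass (adjusted p = 0.165).

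TIA1 and TIAL1 are paralogous proteins with RNA recognition motifs that bind U-rich stretches just after weak 5′ splice sites and help U1 bind there through U1-C. TIAL1 (also TIAR) held the largest called changes, in its exon 3 of 12 on chromosome 10, minus strand. The exon has a 99-nt form, that of the reference transcript, and a 150-nt form that starts 51 bases earlier at another 3′ splice site and ends at the same 5′ splice site, which matches the consensus at 7 of 9 positions. The sequence is given to show what sets the forms apart: the capitals mark the bases that only the long form holds (GRCh38, chr10:119582449-119582618).
TIAL1 150-nt exon: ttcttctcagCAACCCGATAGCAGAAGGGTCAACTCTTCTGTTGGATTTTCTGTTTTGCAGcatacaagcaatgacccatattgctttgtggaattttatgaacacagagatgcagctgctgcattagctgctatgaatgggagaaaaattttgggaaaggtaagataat
The long form contains in its extra bases the upstream part of the shorter form's 3′ splice site, ending in CAG. Both lengths are multiples of 3, and neither form meets a stop in the frame of the reference transcript, so that skipping takes out 33 codons of the shorter form without a shift.

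The 99-nt form was included at 78.3, 74.2 and 71.5% in siSFSWAP libraries, against 98.2, 97.1 and 96.1% in siNT libraries. The 150-nt form was at 74.7, 74.0 and 67.9% in siSFSWAP, against 98.1, 97.4 and 96.8% in siNT. No siSFSWAP library came near a siNT library in either form, and the siNT libraries were close to full inclusion. The changes were −22.5 points for the 99-nt form (log2 odds −3.69 ± 0.49, adjusted p = 4.7e-07) and −25.2 points for the 150-nt form (log2 odds −3.95 ± 0.49, adjusted p = 1.42e-07). Skipping reads, which both events share, numbered 51, 40 and 47 in siSFSWAP libraries, against 7, 4 and 5 in siNT libraries. Junction reads from the common 5′ splice site also count as inclusion in both events. The events are therefore not independent observations, and how often each form was used was not measured. Both forms stayed called whichever library was left out, with changes beyond 20 points and adjusted p no higher than 8.57e-05. They also stayed called with limma on the log2 odds, though nearer to the threshold, at adjusted p of 0.0471 for the 99-nt form and 0.0418 for the 150-nt form. The other 20 tested exons of TIAL1 did not pass. Among them were 3 forms of an alternative exon in intron 5 that end at the same 5′ splice site and each hold an in-frame stop. The 68-nt form was at 13.2, 13.7 and 13.3% in siSFSWAP, against 18.2, 17.9 and 17.6% in siNT, without overlap (adjusted p = 0.228). The 42-nt form averaged 6.17 ± 2.18% in siSFSWAP and 6.75 ± 0.74% in siNT, and the 376-nt form 11.9 ± 2.54% and 12.5 ± 2.7% (SD, n = 3 each), both with overlap.

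The alternative exon 5 of TIA1, whose inclusion sets apart the longer isoform of the protein, is 33 nt long; it is printed with the exon in capitals (GRCh38, chr2:70229049-70229101, minus strand), since the 29-nt form starts 4 bases into it.
TIA1 exon 5: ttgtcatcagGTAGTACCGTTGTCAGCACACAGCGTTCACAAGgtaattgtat
The 33-nt form was included at 48.0, 23.8 and 30.7% in siSFSWAP libraries, against 49.0, 50.9 and 54.1% in siNT libraries. The siNT libraries were close together, siSFSWAP library a lay just under them, and the other siSFSWAP libraries were well below, so the groups did not overlap. The change of −17.1 points did not pass (adjusted p = 0.154). The 29-nt form was at 12.6, 6.06 and 7.35% in siSFSWAP, against 22.1, 20.5 and 14.2% in siNT, also without overlap and without passing (adjusted p = 0.114). These forms had a mean of 93.5 and 55.2 reads per library. Both end at the same 5′ splice site, and junction reads from that site can count as inclusion in both. They are therefore not independent observations, and how often each form was used was not measured. A 104-nt exon of intron 6 had 0 inclusion reads beside 169 skipping reads over the siSFSWAP libraries, which allows an inclusion of up to 0.88% (3 counts over the group, counting error only), against 1.61, 2.10 and 1.92% in siNT libraries (adjusted p = 0.111).

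No intron of these genes passed the test. None of the 16 tested was called lower or higher, against 1.61% called lower and 0.148% called higher of all 10155 introns tested. None passed the adjusted p alone either, which 2.86% of all introns did as lower and 0.364% as higher. At an unadjusted p of at most 0.05 there were 4 members of 16, against 15.8% of all introns. Limma on the log2 odds called 0 members and 1 of all 10155 introns, so its count says little of the members, and it gave 3 members at that unadjusted p, against 16.3% of all introns. The share of all introns called lower was itself 0.142 to 5.25% when a library was left out, while no member was called in any of these fits. The groups did not overlap for 1 member intron that was lower (6.25%, against 15.3% of all introns) and for none that was higher (against 6.02%). The median change was −0.04 points over the 16 introns, against −0.52 points over all introns tested.

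**Figure D4:**
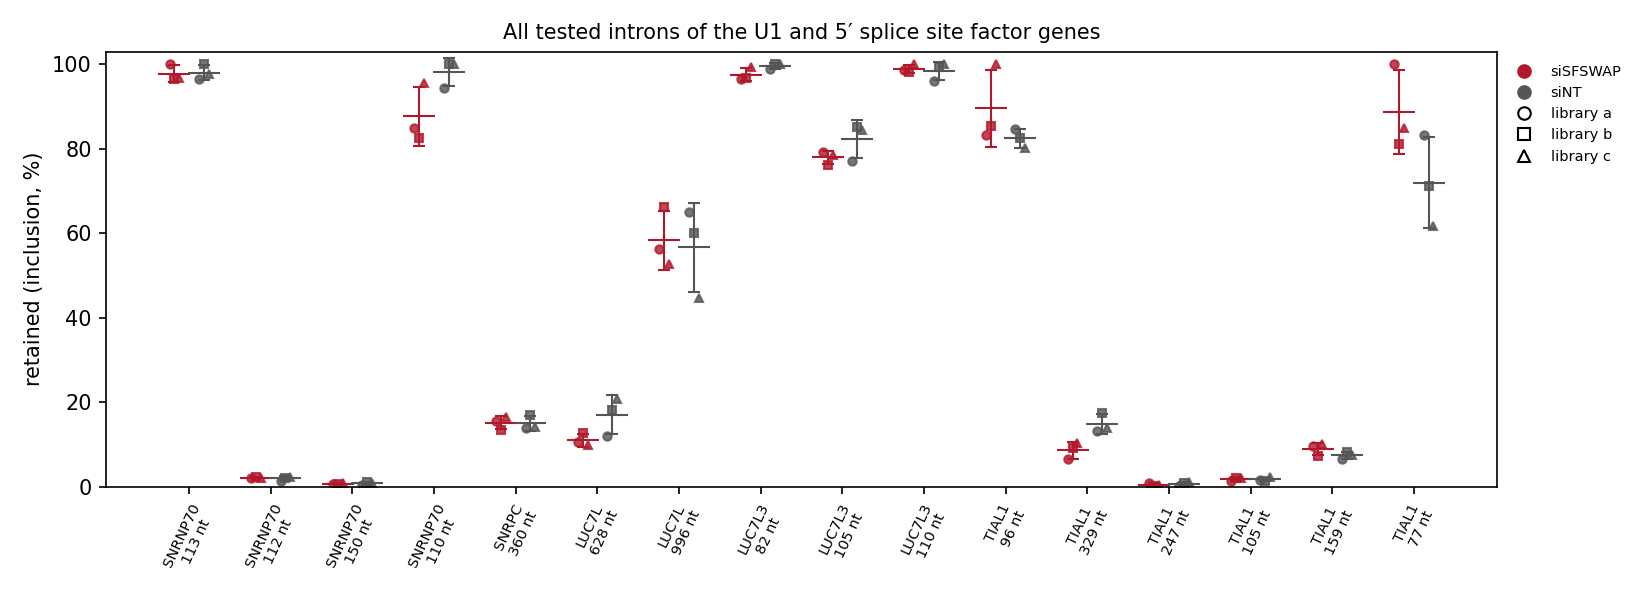
Retention (inclusion, vertical axis, percent) of the 16 tested introns in each library, ordered by gene and position, with siSFSWAP in red left of siNT in grey; symbols mark libraries a, b and c, bars the mean and whiskers the SD (n = 3). Only the TIAL1 329-nt intron had all siSFSWAP values (6.45 to 10.3%) below all siNT values (13.2 to 17.5%). Values are against splicing at each intron's own pair of sites, so those of introns inside a longer intron are not its retention.

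The intron nearest to the threshold was intron 10 of 11 of TIAL1, 329 nt long. Its start is shown to place its 5′ splice site, which matches the consensus at 8 of 9 positions, next to that of LUC7L intron 9; the capitals mark the first intron bases (GRCh38, minus strand, chr10:119577063-119577089 and chr16:189951-189977).
TIAL1 intron 10: cttccaacagGTaattcgatttttcat
LUC7L intron 9: cgaaatacaaGTaactactctgactcc
TIAL1 intron 10 was retained in 6.45, 9.14 and 10.3% in siSFSWAP libraries, against 13.2, 17.5 and 13.9% in siNT libraries. The groups did not overlap, and the change was −6.25 points (adjusted p = 0.0523). LUC7L intron 9 of 9, 628 nt long with 7 matches at its 5′ splice site, was retained in 10.5, 12.6 and 9.77% in siSFSWAP, against 11.9, 18.3 and 20.9% in siNT. Here siNT library a lay within the siSFSWAP values and the change of −6.03 points did not pass (adjusted p = 0.283). Without siNT library a both passed the adjusted p, at 0.000249 for TIAL1 and 2.89e-06 for LUC7L, and so did a 110-nt intron inside intron 6 of SNRNP70 (0.0112) and an 82-nt intron of LUC7L3 (0.0163). No member intron passed when any other library was left out. The fit without siNT library a raised counts over all introns too. In it 26.6% of all introns had an unadjusted p of at most 0.05 in the quasi-binomial test, against 15.8% with all libraries. Introns called lower numbered 498, against 163. That SNRNP70 intron was at 84.8, 82.6 and 95.7% in siSFSWAP, against 94.3, 100 and 100% in siNT, with overlap, and did not pass with all libraries (adjusted p = 0.254). Its values are against splicing at its own pair of sites alone and are not the retention of intron 6.

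Inclusion of the other introns ranged from close to none to nearly full. Each value is against splicing at that intron's own pair of sites alone. Introns 3 and 5 of SNRNP70, 112 and 150 nt long, were nearly always removed, at 2.11 ± 0.11% in siSFSWAP and 1.97 ± 0.47% in siNT for intron 3 and 0.68 ± 0.12% and 0.79 ± 0.37% for intron 5 (SD, n = 3 each). Intron 1 of SNRPC, 360 nt long, was retained in 15.6, 13.4 and 16.5% in siSFSWAP, against 13.8, 17.0 and 14.0% in siNT, with complete overlap (adjusted p = 0.935). Intron 4 of TIAL1, 159 nt long, averaged 8.98 ± 1.46% in siSFSWAP and 7.44 ± 0.87% in siNT (SD, n = 3 each). A 996-nt intron of LUC7L lies inside intron 1 of the reference transcript, between an alternative 70-nt exon and exon 2. Against splicing from that alternative exon alone, it was retained more often than spliced on average. Its values were 56.3, 66.2 and 52.6% in siSFSWAP, against 65.1, 60.0 and 44.7% in siNT, and are not the retention of intron 1. The 82-nt and 105-nt introns of LUC7L3, which lie inside its last exon, were mostly kept: the 82-nt intron averaged 97.5 ± 1.60% in siSFSWAP and 99.6 ± 0.66% in siNT, and the 105-nt intron 78.0 ± 1.54% and 82.3 ± 4.52% (SD, n = 3 each, limma-moderated adjusted p = 0.296 and 0.768 with all libraries). A 96-nt intron within intron 10 of TIAL1 averaged 89.5 ± 9.11% in siSFSWAP and 82.5 ± 2.25% in siNT. That is against splicing from an alternative exon alone, while the whole of intron 10 averaged 8.61% in siSFSWAP and 14.9% in siNT. Among the remaining tested introns the largest difference was that of a 77-nt intron of TIAL1, 88.7 ± 9.97% in siSFSWAP and 72.0 ± 10.8% in siNT, on 31.5 reads per library (limma-moderated adjusted p = 0.476). It lies inside intron 1, and its values are not the retention of intron 1. The 7 untested introns were retained at 97.2% or more on average in both groups.

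Junction reads summed over the exon events of a gene gave the depth behind each member. Splicing and RNA abundance both move these sums, which are therefore no measure of expression. Of the 9 genes 3 were lower in siSFSWAP, against 15.5% of the 10780 genes tested, and none was higher, against 14.6%. SNRNP70 had 859, 911 and 865 CPM in siSFSWAP, against 918, 1207 and 1257 in siNT. SNRPC had 124, 128 and 127 in siSFSWAP, against 138, 158 and 178 in siNT. LUC7L2 had 71.7, 72.1 and 70.8 in siSFSWAP, against 78.6, 97.6 and 93.2 in siNT. In all 3 genes siNT library a was the lowest of its group and nearest to the siSFSWAP libraries, and the groups did not overlap. The log2 changes were −0.35 ± 0.10 for SNRNP70, −0.31 ± 0.10 for SNRPC and −0.32 ± 0.10 for LUC7L2 (SE, limma, adjusted p = 0.0248, 0.0318 and 0.0304). None of the 3 calls survived leaving out any library other than siNT a, with adjusted p between 0.0626 and 0.139. TIA1 averaged 38.2 ± 1.82 in siSFSWAP and 43.9 ± 1.91 in siNT, LUC7L 327 ± 7.73 and 357 ± 15.1, and neither passed with all libraries. SNRPA, LUC7L3 and TIAL1 had log2 changes of 0.05, −0.01 and −0.01. PRPF40B, a human relative of yeast Prp40p that bridges U1 and the branch site, had 1.93, 2.69 and 2.00 in siSFSWAP, against 1.40, 1.46 and 1.70 in siNT, and did not pass (adjusted p = 0.139).

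**Figure D5:**
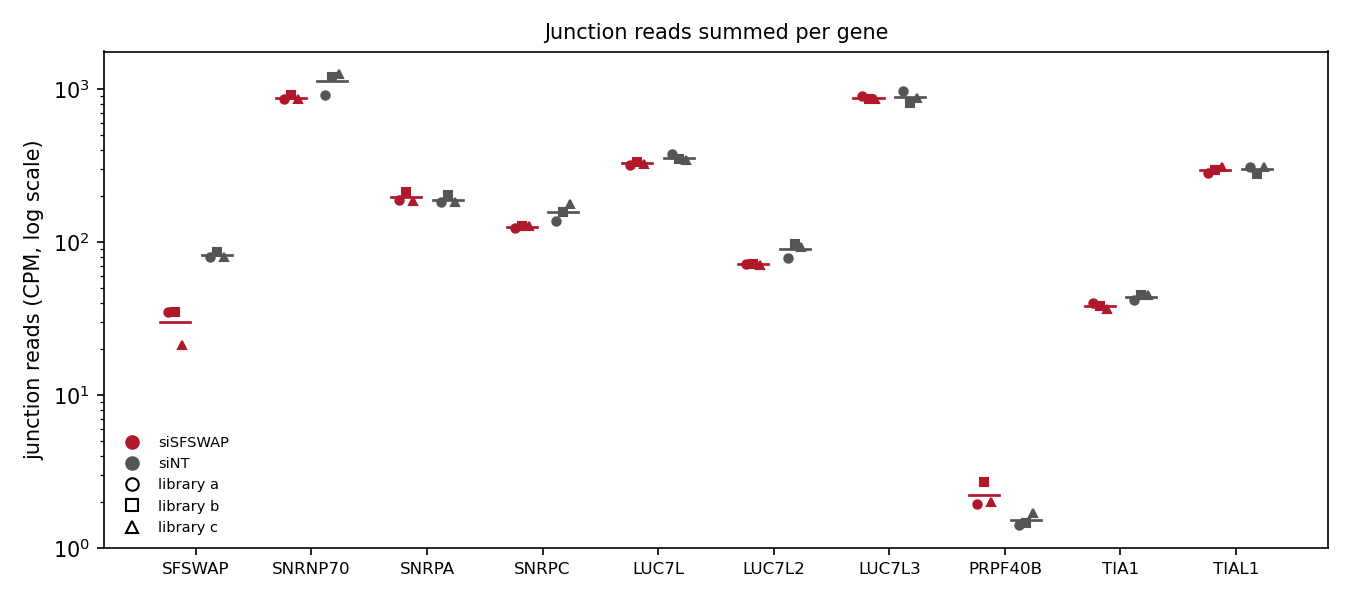
CPM of junction reads (vertical axis, log scale) summed over the exon events of SFSWAP and of the 9 member genes in each library, with siSFSWAP in red left of siNT in grey; symbols mark libraries a, b and c and bars the mean. SFSWAP is lower in every siSFSWAP library (21.3 to 34.7) than in any siNT library (79.7 to 86.5), and PRPF40B lies below 3 in all 6 libraries.

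Other genes of the pathway were counted as 4 lists: the Sm ring, further proteins that join U1 or its 5′ splice site, the factors that hand the site over to U6 and U5, and the proteins of U11, which takes the place of U1 on minor introns. No intron of these lists passed the adjusted p, out of 7, 20, 23 and 2 tested, and none was called. Of their 26, 57, 55 and 13 tested exons a single exon was called, a 204-nt exon of SRSF1, an SR protein that recruits U1 through U1-70K. It averaged 32.4 ± 6.94% in siSFSWAP and 65.3 ± 6.18% in siNT (SD, n = 3 each, limma-moderated adjusted p = 0.035) on a mean of 26.8 reads per library. By the adjusted p alone 1 Sm ring exon was lower and 2 higher, 2 exons of the U1-joining proteins were lower, 2 of the handover factors were lower and 1 higher, and no U11 exon passed. Over the 151 exons of the 4 lists this came to 0.662% called, against 0.701% called lower and 1.27% called higher of all exons tested, and by the adjusted p alone to 3.31% lower, against 2.37%, and 1.99% higher, against 3.11%. These shares lie near those of all exons. The median changes of the exons were −0.06, −0.42, 0.03 and 0.26 points in the order of the lists.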

How the data were processed

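Polyadenylated RNA of 3 siSFSWAP and 3 siNT libraries had been sequenced. Per the submitters' notes and the study's methods the authors used cutadapt 1.9.1 for trimming, STAR 2.7 for alignment to GRCh38 and rMATS for splicing events. The deposited retained intron and skipped exon tables list, for 3 libraries in each cell, values of another unit than expression: whole junction read counts and inclusion levels. They also hold the authors' p-values, which were not used. The tables number the groups; which is siNT was inferred from the study's definition of the inclusion difference. Whether libraries kept strand is not stated in these sources, so reads of antisense genes cannot be told apart.

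Inclusion was computed from counts divided by effective lengths. Events were tested in R 4.3.3 by quasi-binomial F tests, two-sided, each with its dispersion moderated across events with limma 3.58.1 and floored at 1, and p-values were adjusted by Benjamini-Hochberg over that table. The thresholds were those of the study. Of events with the same exon, that with the most reads stood for the exon. Junction reads were summed per gene (mean of at least 20 per library) and tested with limma on log2 CPM with a prior of 0.5 reads, scaled to library totals. A planned count model for these sums and as an alternative for the events was not run. The tests were first tried on simulated data with known changes. Within each gene all called events were given in full, then that with the smallest adjusted p and those with siNT inclusion of 5 to 95% and the most reads, up to 3 per table; the forms of SNRNP70 and some further events were chosen after their values were seen. The member genes and lists were chosen with earlier results of these data known. Sequences came from the GRCh38 reference and exon numbers from GENCODE 44. No sample was left out.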

Additional observations from a re-analysis of the deposited data

How the results depend on the processing

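No paired analysis was possible because the columns carry no replicate numbers. Member introns were called 0 times and member exons 2 or 3 times under each of these alternatives: no minimum of reads per form, at least 50 reads per library, limma on the log2 odds, no floor on the dispersion, a 10 point threshold, every exon event counted, and each library left out. Calls over all events moved far more, so these member counts stand for unlike shares. With limma on the log2 odds 1 intron of 10155 was called lower and 0 higher, and 23 and 40 of 48100 exon events. Without siNT library a these were 498 and 44 of 9483 introns, and 354 and 1513 of 40202 exon events. With the adjusted p alone, an alternative chosen after seeing the data, 13 exons passed. The SNRNP70 80-nt exon lost its call with no minimum of reads per form (adjusted p = 0.0564), with at least 50 reads (0.0501) and with limma on the log2 odds (0.382). Of the 13 exons past the adjusted p, 5 also passed with limma on the log2 odds, the 2 forms of TIAL1 exon 3 and the 3 forms of SNRNP70 exon 3, and 8 did not (adjusted p of 0.0827 to 0.564). Called genes by summed junction reads ranged from 0 to 4 when a library was left out (4 without siNT a, where TIA1 joined at an adjusted p of 0.0477, and 0 without each other library). They were 3 with median-of-ratios scaling (chosen after seeing the data) and with no filter, and 2 with the deepest single event of each gene, which also turned the log2 changes of LUC7L to 0.0442, LUC7L3 to 0.0351 and TIAL1 to 0.0116.

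When a library was left out, changes that were not called turned sign within these ranges (points): LUC7L 996-nt intron −4.19 to 6.01, SNRPC 360-nt intron −0.475 to 1.24, LUC7L3 193-nt exon −2.87 to 0.0881, LUC7L 30-nt exon −2.57 to 1.46, LUC7L 324-nt exon −1.09 to 2.18, TIAL1 376-nt exon −1.89 to 0.846 and TIAL1 42-nt exon −1.24 to 0.679. The log2 changes of summed reads did so for SNRPA −0.0164 to 0.101, LUC7L3 −0.0722 to 0.0552 and TIAL1 −0.0596 to 0.025. The cause was not tested. The planned edgeR, DESeq2 and TMM alternatives were not run. Depth was low for the SNRNP70 80-nt, TIA1 and LUC7L3 3′ exons, at 27.5 to 93.5 reads per library, for 5 introns (TIAL1 77-nt and 96-nt, SNRNP70 110-nt and 113-nt, LUC7L 996-nt), at 31.5 to 85.2, and for the SRSF1 exon, at 26.8. PRPF40B was below the depth minimum.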
